A study of Zea mays with 12 samples.

Results

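Kernels of the small-kernel mutant *smk7a* were compared with WT kernels at 12 days after pollination (DAP), with 3 biological replicates of each genotype. These 6 samples were chosen by their genotype and stage labels from 12 sequenced samples, the other 6 being the same genotypes at 20 DAP. The comparison asks which genes were expressed differently in the mutant kernel early in grain filling. *smk7a* is a recessive mutation from an EMS-mutagenized population of the inbred line B73, and since homozygous plants do not grow normally it was kept in heterozygous plants. Mutant and WT kernels were picked from the same segregating ears, so all samples share the B73 background. The labels number the replicates of each genotype, but nothing says that they came from separate ears, so the p-values measure only the spread between these samples, which may be technical. Whether the WT kernels were homozygous or carried 1 mutant allele is not stated in the sources used here. RNA was sequenced from poly(A)-selected, strand-specific libraries of kernels, and the expression level of each gene is given as FPKM, fragments scaled by transcript length and by the number of mapped fragments. The table analysed here lists 720 genes, a part of the genome. Of these, 365 were above 1 FPKM in at least 3 of the 6 samples and were tested, and 172 were listed at 0 in all 6 samples.

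A maize kernel holds a triploid endosperm and a diploid embryo inside the maternal pericarp. Sugars and amino acids from the mother plant enter through the basal endosperm transfer layer (BETL), whose cells carry wall ingrowths, and the starchy endosperm turns them into starch and storage proteins. At 12 DAP the endosperm is at the start of this filling phase. A sample of kernels mixes all of these tissues, so fewer cells of a type and less RNA per cell cannot be told apart in the values below.

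The 2 genotypes differed first in the level of most tested genes as deposited. The FPKM of the 720 genes summed to 4828, 4779 and 4261 in the 3 WT samples and to 5800, 5853 and 5829 in the *smk7a* samples. With FPKM as deposited, 291 of the 365 tested genes had a log2 fold change (*smk7a* over WT) above 0, and the median was 0.48, with quartiles of 0.10 and 0.89. Median of ratios scaling takes, for each sample, the middle value of its gene by gene ratios to a reference built from all samples. These factors were 0.888, 0.889 and 0.765 in the WT and 1.19, 1.19 and 1.17 in *smk7a*. After this scaling the median was 0.01, with quartiles of -0.38 and 0.41, and 185 genes were above 0. FPKM give no read totals, so no counting error is attached to the values. Whether the shift holds for the rest of the genome was not tested, so calls were made under both scalings, and a gene is said to have risen or fallen only where it was called under both. A log2 fold change of a gene given without its scaling is after median of ratios scaling.

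**Figure D1:**
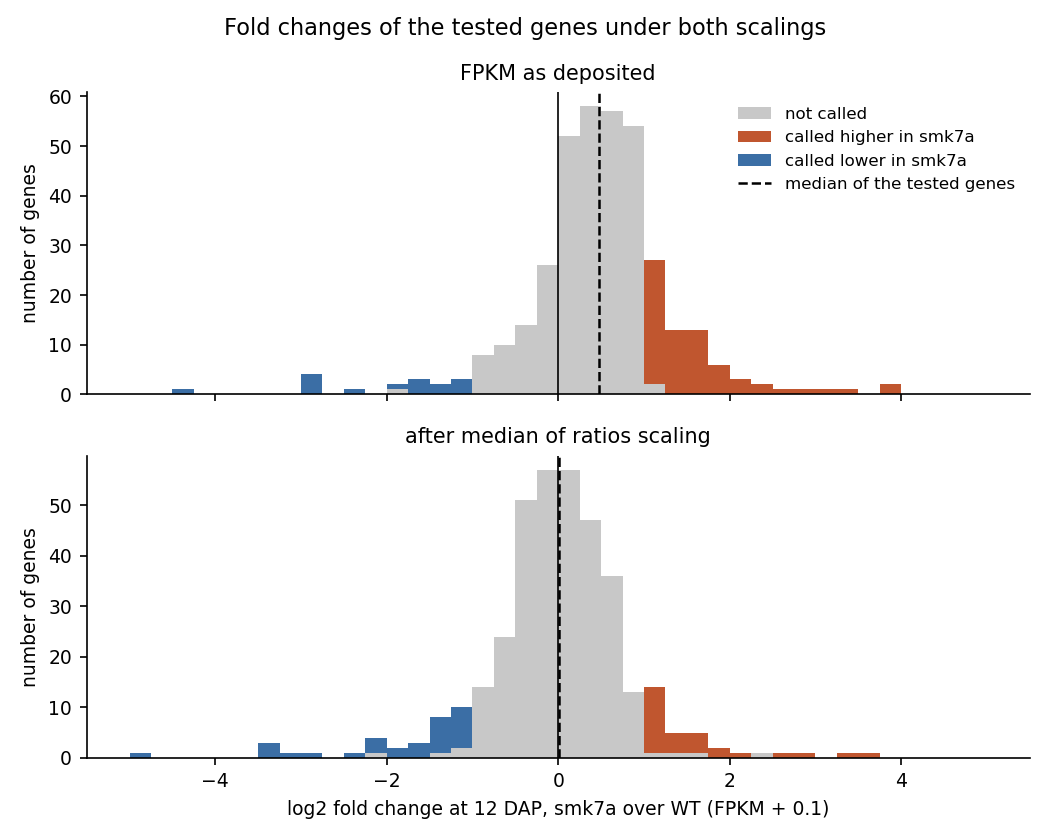
Histograms of the log2 fold change (x axis, *smk7a* over WT at 12 DAP) of the 365 tested genes (y axis, number of genes), with FPKM as deposited (upper) and after median of ratios scaling (lower). Orange and blue mark genes called higher and lower, and the dashed line is the median, which moves from 0.48 to 0.01.

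A gene was called when its fold change was above 2 and its adjusted p-value under 0.05 in limma, fitted on log2(FPKM + 0.1), a scale that understates the change of weakly expressed genes. With FPKM as deposited, 68 genes were called higher in *smk7a* (18.6% of those tested) and 15 lower (4.11%). After scaling, 28 genes were called higher (7.67%) and 30 lower (8.22%). All 28 were also called higher as deposited, and all 15 called lower as deposited were also called lower after scaling. Hence 43 genes (11.8%) were called under both scalings, of which 28 rose (7.67%) and 15 fell (4.11%). The rises had a median size of 1.32 on the log2 scale (range 1.01 to 3.52), and the falls a median size of 2.20 (range 1.56 to 4.91). The 3 *smk7a* values lay outside the range of the 3 WT values for 221 tested genes (60.5%) as deposited and for 185 (50.7%) after scaling. Among the 43 genes the groups did not overlap as deposited, and after scaling they overlapped for 1 gene, *Zm00001d000242*, an expressed protein of unstated function. For a single gene, a two-sided exact permutation test of 3 against 3 samples cannot go below p = 0.1.

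The genes that fell included 1 marker of each endosperm tissue with a listed marker. *BETL4* (*Zm00001d000161*, basal endosperm transfer layer4), a secreted protein gene of the transfer layer, was at 271, 252 and 258 FPKM in the WT and at 67.5, 90.0 and 81.8 FPKM in *smk7a*. The highest mutant sample was thus below the lowest WT sample. The log2 change came to -2.20 (SE 0.14) after scaling and -1.71 as deposited, with adjusted p-values of 0.000125 and 0.000116. *BETL4* was also among the 3 most abundant of the 43 genes. *dull endosperm1* (*Zm00001d000002*) encodes a starch synthase of the endosperm. Its FPKM were 53.7, 58.5 and 44.5 in the WT and 17.7, 9.08 and 17.7 in *smk7a*, with no overlap. This gave a log2 change of -2.35 (SE 0.27) after scaling, with an adjusted p-value of 0.000951, and -1.86 as deposited.

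The third endosperm gene, *Zm00001d000418* (endosperm specific protein1), passed only after scaling. It stood at 200, 238 and 217 FPKM in the WT and at 110, 159 and 115 FPKM in *smk7a*. The groups did not overlap, and the adjusted p-value was 0.00590 as deposited, but the log2 fold change of -0.79 on that scale was under the threshold, compared with -1.27 after scaling (adjusted p = 0.00176). The summed FPKM of the 2 starchy endosperm markers ranged from 254 to 296 in the WT and from 128 to 169 in *smk7a*. No zein gene is among the listed genes, and the 5 genes with a storage protein term, all germin-like proteins, were too low to be tested. The embryo markers gave little: of 7 listed late embryogenesis abundant genes, 6 were at 0 in all 6 samples. The tested 1, *Zm00001d000135*, was at 19.9, 19.8 and 12.4 FPKM in the WT and at 36.2, 28.0 and 35.7 FPKM in *smk7a*, and it was not called after scaling (log2 fold change 0.48, adjusted p = 0.0815). No marker of the aleurone or of the embryo surrounding region was listed. How far the share of each tissue in the kernel set these levels was not tested.

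The deepest fall was that of *Zm00001d002132*, a gene with no description. Its FPKM were 40.1, 39.3 and 15.8 in the WT and 0.833, 3.05 and 0.729 in *smk7a*. The log2 change came to -4.91 (SE 0.53) after scaling and -4.44 as deposited, with adjusted p-values of 0.000788 and 0.000780. All 3 mutant samples were below all 3 WT samples. Also without a description is *Zm00001d000181*, which was at 11.3, 11.6 and 10.8 FPKM in the WT and at 1.85, 2.83 and 1.55 FPKM in *smk7a*. Its replicates lay close together, and the log2 change was -2.89 with an SE of 0.21 and an adjusted p of 0.000158.

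*Zm00001d000256* encodes CML21, a calmodulin-like protein of the family that binds calcium as a second messenger. It was at 22.8, 22.0 and 18 FPKM in the WT and at 2.24, 3.81 and 2.67 FPKM in *smk7a*. The groups were far apart for the spread of their replicates, with a log2 change of -3.31 (adjusted p = 0.000125, SE 0.19). *Zm00001d000134*, annotated to the cytokinin-activated phosphorelay and to DNA binding, was a low gene. It had 3.24, 1.23 and 1.74 FPKM in the WT and 0.328, 0.300 and 0 FPKM in *smk7a*. Its log2 fold change of -3.32 (adjusted p = 0.00779) rested partly on the sample at 0 and was -2.69 without it, *smk7a* replicate 3.

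*Zm00001d000128*, annotated to desiccation and salt responses, gave a call that depended on single libraries. Its WT values were 43.2, 33.5 and 63.7 FPKM, and those of *smk7a* were 2.15, 29.1 and 3.13 FPKM. Replicate 2 of *smk7a* thus stood just under the lowest WT sample, while the other 2 were far lower. The log2 change was -3.40 with an SE of 0.89 and an adjusted p of 0.0253 and became -4.52 without that replicate (adjusted p = 0.000472). The call after scaling was lost without any 1 of the other 5 samples, with adjusted p-values from 0.0531 to 0.0724.

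Of the 46 tested plastid genes 4 fell, beside 4.11% of all tested genes. *Zm00001d001857* encodes subunit 6 of the light-harvesting complex of photosystem II. It was at 4.60, 9.39 and 4.14 FPKM in the WT and at 0.776, 0.753 and 0.708 FPKM in *smk7a*, so that it passed the limit of 1 FPKM only in the WT. The log2 change was -3.21 with an SE of 0.29 and an adjusted p of 0.000371. *Zm00001d000399*, named chloroplast protein synthesis2 and annotated to protein refolding, was at 13.3, 14.7 and 6.8 FPKM in the WT and at 3.40, 3.14 and 3.98 FPKM in *smk7a* (log2 fold change -2.10, adjusted p = 0.00102). The others were *dull endosperm1*, whose enzyme works in the amyloplast, and *Zm00001d000009*, annotated to the catalytic core of the chloroplast ATP synthase, with a log2 fold change of -1.63 (adjusted p = 0.000380). Reads of *Zm00001d000009* could be shared with the copy of that gene in the plastid genome, so its value is uncertain. As a sign of green maternal tissue the set is thin, since of 7 listed photosystem, light-harvesting and Rubisco genes 3 were at 0 in all 6 samples and only *Zm00001d001857* was tested.

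The other falls belonged to several functions. *Zm00001d002089*, a tetratricopeptide repeat protein annotated to the cell cycle and to the response to abscisic acid, was at 23.2, 26.7 and 28.1 FPKM in the WT and at 8.43, 7.81 and 8.83 FPKM in *smk7a* (log2 fold change -2.10, SE 0.16, adjusted p = 0.000158). The sulfate transporter gene *Zm00001d000204* was uneven in the WT, with 61.6, 41.4 and 24.0 FPKM, and was at 10.9, 19.2 and 13.1 FPKM in *smk7a* (log2 fold change -1.97, adjusted p = 0.00335). *Zm00001d000038* encodes D6PKL1, which belongs by name to the D6 protein kinases that activate auxin efflux carriers in Arabidopsis. It was at 2.58, 2.75 and 2.67 FPKM in the WT and at 1.06, 1.6 and 0.981 FPKM in *smk7a* (log2 fold change -1.56, adjusted p = 0.00242). As deposited its value of -1.10 dropped to -0.97 without *smk7a* replicate 3, under the fold threshold. *Zm00001d001894*, a hydroxyproline-rich glycoprotein gene, was called under both scalings (-1.65 after scaling, adjusted p = 0.0163), but as deposited the call was lost without any of the 3 WT samples or *smk7a* replicate 1.

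Among the rises were genes of browning and wounding. *polyphenol oxidase1* (*Zm00001d000001*) encodes a catechol oxidase, an enzyme that forms brown pigments in damaged plant tissue. It was at 9.74, 4.12 and 5.06 FPKM in the WT and at 115, 69.5 and 78.8 FPKM in *smk7a*. The lowest mutant value was thus far above the highest WT value. The log2 change came to 3.36 (SE 0.33) after scaling and 3.84 as deposited, with adjusted p-values of 0.000427 and 0.000137. *Zm00001d002160*, a wound-responsive family gene, was at 5.23, 8.74 and 16.6 FPKM in the WT and at 122, 58.9 and 97.1 FPKM in *smk7a*. This amounted to a log2 change of 2.79 (SE 0.475) after scaling, with an adjusted p-value of 0.00414.

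*Zm00001d002160* lies among 4 consecutive identifiers with wound descriptions, of which the other 3 are given here after their values were seen. *Zm00001d002161* was at 2.45, 4.39 and 4.34 FPKM in the WT and at 21.2, 12.6 and 8.87 FPKM in *smk7a*. It rose by 1.39 on the log2 scale (adjusted p = 0.0260), a call that was lost without WT replicate 1, WT replicate 2 or *smk7a* replicate 2. *Zm00001d002158* was at 5.94, 2.81 and 10.6 FPKM in the WT and at 15.5, 25.7 and 22.6 FPKM in *smk7a*. It was called as deposited (log2 fold change 1.87, adjusted p = 0.00974) but not after scaling (1.39, adjusted p = 0.0652), although without WT replicate 3 it passed after scaling too (1.90, adjusted p = 0.0118). *Zm00001d002159*, described as a wound-induced protein, had 18.1, 8.47 and 26.4 FPKM in the WT and 36.8, 23.1 and 36.4 FPKM in *smk7a*, with overlapping groups and no call (log2 fold change 0.49, adjusted p = 0.441). If these neighbours are near-identical copies, the mapping could have divided their reads among them, which was not tested.

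*lipoxygenase6* (*Zm00001d002000*) belongs to the family of enzymes that oxidize fatty acids, some of which feed jasmonate synthesis. It was at 12.4, 11.6 and 13.7 FPKM in the WT and at 51.7, 51.6 and 55.9 FPKM in *smk7a*. The replicates lay close together on both sides, and the log2 change was 1.59 with an SE of 0.15 and an adjusted p of 0.000427 after scaling and 2.07 as deposited. *maize insect resistance3* (*Zm00001d002065*) is named for a cysteine protease family linked to insect defense in maize leaves. It was at 33.7, 34.0 and 38.2 FPKM in the WT and at 105, 97.1 and 111 FPKM in *smk7a* (log2 fold change 1.08, SE 0.15, adjusted p = 0.00193), and it was just under the fold threshold without WT replicate 2, at 0.99. *Zm00001d002137*, the precursor of the elicitor peptide 1 that triggers defense responses in maize leaves and was named after its values were seen, had 3.42, 3.25 and 3.46 FPKM in the WT. In *smk7a* it had 7.96, 8.79 and 9.39 FPKM, and it was called as deposited (1.34) but not after scaling (0.86), where only its adjusted p-value of 0.00335 passed.

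Of the 33 listed genes with a jasmonate, wounding or defense term, 23 were tested, 5 rose under both scalings and 0 fell, beside 7.67% and 4.11% of all tested genes. The terms of this list include polyphenol oxidase and lipoxygenase and were chosen with earlier results of these data known. These counts therefore only describe the members. Their median log2 fold change was 0.35 after scaling and 0.83 as deposited, beside 0.01 and 0.48 for all tested genes. The 5 that rose were *polyphenol oxidase1*, *Zm00001d002160*, *lipoxygenase6*, *Zm00001d002161* and *Zm00001d000390*, a RING zinc finger gene at 0.767, 0.190 and 0.378 FPKM in the WT and 1.96, 1.48 and 2.12 FPKM in *smk7a* (log2 fold change 1.55, adjusted p = 0.0389). The call of this weakly expressed gene was lost without WT replicate 2 or WT replicate 3, with adjusted p-values of 0.0656 and 0.0685. The jasmonate signalling repressor gene *Zm00001d002029* (TIFY 3B) was called as deposited (1.07) but not after scaling (0.59, adjusted p = 0.0443), and its deposited value was 0.92 without WT replicate 2. *Zm00001d000117*, a glucan endo-1,3-beta-glucosidase gene, was at 0.718, 0.922 and 0.0499 FPKM in the WT and at 3.52, 7.88 and 1.27 FPKM in *smk7a*. Its log2 fold change of 2.39 did not pass after scaling (adjusted p = 0.0724), and its call as deposited (2.77) was lost without WT replicate 3, at 1.90 (adjusted p = 0.0654).

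An amino acid transporter gene and a sugar transporter gene were also among the rises. *Zm00001d001984* encodes amino acid permease 7, of a family that imports amino acids into cells. It was at 14.9, 17.5 and 12.2 FPKM in the WT and at 66.3, 83.3 and 67.9 FPKM in *smk7a* (log2 fold change 1.80, SE 0.15, adjusted p = 0.000244). Every mutant sample was thus well above every WT sample. *SWEET1a* (*Zm00001d000222*), of the family of sugar transporters that let sugars pass down their gradient, was at 12.8, 10.8 and 9.0 FPKM in the WT and at 25.6, 40.7 and 29.7 FPKM in *smk7a* (log2 fold change 1.05, SE 0.19, adjusted p = 0.00577). It dropped below the fold threshold without WT replicate 2 (0.99), WT replicate 3 (0.99) or *smk7a* replicate 2 (0.89). Of 39 listed transport genes, 16 were tested, 2 rose, namely these, and 1 fell, the sulfate transporter, beside 7.67% and 4.11% of all tested genes. Another sugar transporter gene, *Zm00001d000183* (monosaccharide transporter4), was called under neither scaling (log2 fold change 0.13, adjusted p = 0.809, and 0.59 as deposited).

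*Zm00001d001771*, an aspartyl protease gene whose product is annotated to the extracellular region, was at 12.3, 13.7 and 5.26 FPKM in the WT and at 65.6, 65.4 and 44.9 FPKM in *smk7a*. The log2 change of this gene was 2.09 (SE 0.32, adjusted p = 0.00261). *Zm00001d001960*, described as naringenin 2-oxoglutarate 3-dioxygenase, an enzyme of flavonoid synthesis, was at 3.16, 4.40 and 0.569 FPKM in the WT and at 16.6, 21.2 and 16.4 FPKM in *smk7a*. The low WT replicate 3 weighed on its log2 fold change, which was 2.61 (adjusted p = 0.0163) with it and 1.82 (adjusted p = 0.00183) without it. *Zm00001d002193* encodes xyloglucan endotransglucosylase/hydrolase protein 9, which cuts and rejoins xyloglucan in the cell wall. It was at 2.33, 2.39 and 1.83 FPKM in the WT and at 9.76, 11.3 and 11.3 FPKM in *smk7a* (log2 fold change 1.79, SE 0.13, adjusted p = 0.000158).

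The largest fold change of all rises was that of a gene barely read in the WT. *Zm00001d002055*, described as ripening-related protein 3, was listed at 0, 0.421 and 0 FPKM in the WT and had 2.60, 2.28 and 2.07 FPKM in *smk7a*. Its log2 change of 3.52 (adjusted p = 0.0135, SE 0.77) depends on the pseudocount and became 4.38 without WT replicate 2. With a pseudocount of 0.01 in place of 0.1 the call was lost (adjusted p = 0.0610). Its neighbour *Zm00001d002057*, of the same description and too low to be tested, went the other way, with 0.196, 0.197 and 0.291 FPKM in the WT and 0 in all 3 *smk7a* samples. The remaining 2 of the 10 largest rises have no description. *Zm00001d001915*, annotated to transition metal binding and transport, was at 5.59, 4.93 and 5.44 FPKM in the WT and at 23.6, 30.9 and 21 FPKM in *smk7a* (log2 fold change 1.72, adjusted p = 0.000591). *Zm00001d001839* was at 1.09, 0.382 and 0.50 FPKM in the WT and at 3.09, 4.14 and 2.02 FPKM in *smk7a* (log2 fold change 1.69, adjusted p = 0.0187), and its call was lost without WT replicate 2 or *smk7a* replicate 2, with adjusted p-values of 0.0560 and 0.0542.

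**Figure D2:**
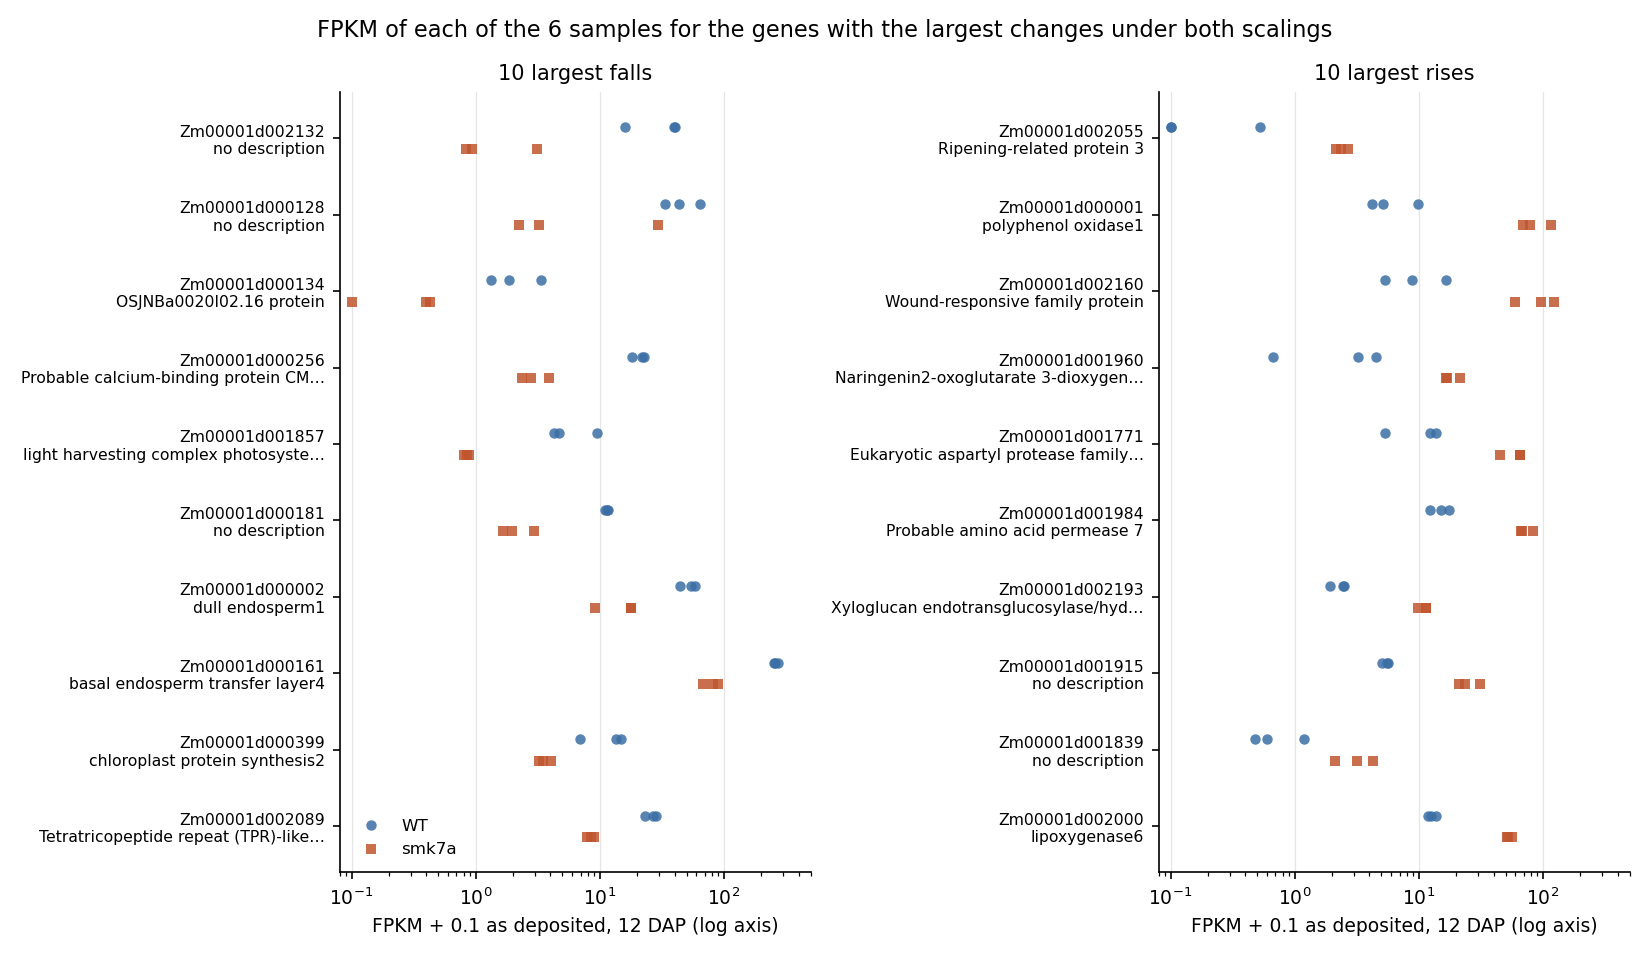
FPKM + 0.1 as deposited (x axis, log scale) of each WT sample (blue circles) and each *smk7a* sample (orange squares) at 12 DAP for the 10 largest falls (left) and the 10 largest rises (right) called under both scalings. The groups do not overlap in any row, and 1 *smk7a* sample of *Zm00001d000128*, at 29.1 FPKM, lies close to the lowest WT sample at 33.5 FPKM.

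The plot of single samples shows these 20 genes side by side, from falls that start at 252 FPKM or more in *BETL4* to rises from 0 in *Zm00001d002055*. Smaller rises called under both scalings were found in genes of several functions. The kinase genes *Zm00001d000169* (MHK) and *Zm00001d001813* rose by 1.07 and 1.06 on the log2 scale (adjusted p = 0.00161 and 0.00262). The MHK gene was at 9.43, 7.64 and 7.93 FPKM in the WT and at 25.9, 22.6 and 25.3 FPKM in *smk7a*, and dropped to 0.95 without WT replicate 2. *Zm00001d001813* dropped to 0.96 without *smk7a* replicate 2. *Zm00001d000299*, an endosomal targeting gene with a BRO1-like domain, rose from 1.07, 0.894 and 0.753 FPKM to 2.89, 3.17 and 2.63 FPKM (log2 fold change 1.13, adjusted p = 0.00455). *Zm00001d001849*, an acyl-activating enzyme of the peroxisome, rose from 4.17, 2.60 and 2.37 FPKM to 7.87, 9.41 and 12.3 FPKM (1.21, adjusted p = 0.00776). Chosen after its values were seen, *Zm00001d000402*, related to myosin heavy chains, rose from 1.26, 1.43 and 1.67 FPKM to 5.24, 7.15 and 4.65 FPKM (1.41, adjusted p = 0.00324). *Zm00001d000242*, at 3.49, 2.07 and 1.39 FPKM in the WT and 9.22, 7.05 and 4.59 FPKM in *smk7a*, was called at 1.11 (adjusted p = 0.0377), a call that was lost without WT replicate 2 or 3 or *smk7a* replicate 1 or 2.

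The genes were also grouped into 21 lists by their descriptions and annotation terms, and a gene could be in several. Of the 43 called genes, 20 were in no list, and 109 of the tested genes were in none. The counts of each list are to be read beside the 7.67% of all tested genes that rose and the 4.11% that fell. Plastid genes were the largest list, with 81 listed and 46 tested, of which 1 rose and 4 fell. Their median log2 fold change was -0.21 after scaling and 0.26 as deposited, so that its sign depended on the scaling. After scaling 3 more plastid genes were called lower, among them *Zm00001d000123*, a Rossmann-fold protein gene at 8.02, 7.62 and 7.54 FPKM in the WT and 3.54, 4.46 and 4.07 FPKM in *smk7a*. This gave a log2 fold change of -1.41 (adjusted p = 0.000427) after scaling and -0.93 as deposited, where it passed the fold threshold at -1.01 without *smk7a* replicate 2.

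In the starch, sugar and glycolysis list, 10 of 15 genes were tested, with *SWEET1a* rising and *dull endosperm1* falling. The median was 0.22 after scaling and 0.69 as deposited. The list thus held changes of both directions. Further members were picked after their values were seen. The glucose 6-phosphate/phosphate translocator gene *Zm00001d000021*, whose product brings hexose phosphate into plastids for starch synthesis, was at 136, 133 and 142 FPKM in the WT and at 130, 110 and 140 FPKM in *smk7a*. This amounted to a log2 change of -0.61 (adjusted p = 0.0177) after scaling and -0.12 (adjusted p = 0.455) as deposited, under the fold threshold on both scales. The pyruvate kinase gene *Zm00001d001831*, of the last step of glycolysis, was at 6.81, 7.36 and 7.13 FPKM in the WT and at 20.2, 16.5 and 19.9 FPKM in *smk7a*. It was called as deposited (1.39) and stood at 0.91 (adjusted p = 0.00320) after scaling, where it passed the fold threshold without *smk7a* replicate 2 (1.03).

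The hormone lists were small, and their counts lie near the share of 11.8% of all tested genes that were called under both scalings. Of 10 tested auxin genes, 0 were called under both scalings, and the median was -0.40 after scaling and 0.07 as deposited. After scaling 2 were called lower, among them the F-box gene *Zm00001d000224* (SKP2A), named for a protein that marks cell-cycle factors for degradation and binds auxin in Arabidopsis. It was at 16.9, 15.3 and 18.1 FPKM in the WT and at 7.96, 10.2 and 8.91 FPKM in *smk7a*, with a log2 fold change of -1.37 (adjusted p = 0.00114) after scaling and -0.89 (adjusted p = 0.00290) as deposited. Of 5 tested cytokinin genes 1 fell, *Zm00001d000134*, and the median was -0.35 after scaling and 0.13 as deposited. *Zm00001d000237*, a cis-zeatin O-glucosyltransferase that stores cytokinin in a bound form, was called lower only after scaling, at 3.35, 3.30 and 1.85 FPKM in the WT and 0.814, 2.0 and 1.5 FPKM in *smk7a*, with overlapping groups as deposited. Its value of -1.42 (adjusted p = 0.0177) lost the call without WT replicate 1 or WT replicate 2, with adjusted p-values of 0.0578 and 0.0632. As deposited it was at -0.96, and passed without WT replicate 3 (-1.24) or *smk7a* replicate 2 (-1.23). Of 7 tested abscisic acid genes 1 fell, and of 10 tested ethylene and gibberellin genes 0 were called under both scalings. The latter had a median of 0.42 after scaling and 0.90 as deposited.

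Of 22 tested transcription factor genes, 8 were called higher as deposited, beside 18.6% of all tested genes, and 0 after scaling, beside 7.67%. None was called lower under either scaling, and the medians were 0.75 as deposited and 0.27 after scaling. The smallest adjusted p-value after scaling was that of *Zm00001d001837*, a homeodomain-like gene at 3.92, 4.26 and 3.64 FPKM in the WT and 9.32, 10.2 and 8.57 FPKM in *smk7a* (log2 fold change 0.75, adjusted p = 0.00335, and 1.23 as deposited). *Zm00001d001838*, described as the B3 domain factor LEC2, which promotes embryo maturation in Arabidopsis, was picked after its values were seen. It was at 3.46, 3.56 and 2.35 FPKM in the WT and at 2.37, 1.70 and 3.01 FPKM in *smk7a*, with overlapping groups as deposited. The log2 change of this gene was -0.87 (adjusted p = 0.0280) after scaling and passed the fold threshold without *smk7a* replicate 3 (-1.05).

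Of 20 tested ribosome and translation genes and 22 tested RNA processing genes, 0 were called under both scalings in either list. After scaling 1 gene of both, *Zm00001d001882*, for the 19 kDa protein of the signal recognition particle, was called lower. It was at 6.45, 5.79 and 4.37 FPKM in the WT and at 3.18, 3.48 and 4.27 FPKM in *smk7a*. Its log2 fold change of -1.06 (adjusted p = 0.00294), against -0.58 as deposited, fell short of the fold threshold without WT replicate 1 or *smk7a* replicate 1. The medians of these 2 lists were -0.06 and -0.29 after scaling and 0.42 and 0.18 as deposited. Among 21 tested mitochondrial genes 0 were called under both scalings, with a median of -0.01 after scaling and 0.47 as deposited, and the smallest adjusted p-value after scaling was that of *Zm00001d000311*, an OMP85 outer membrane gene (0.59, adjusted p = 0.0170). Its deposited value of 1.06 dropped to 0.91 without WT replicate 3.

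In the vesicle traffic list 1 of 32 tested genes rose, *Zm00001d000299*, and the median was -0.01 after scaling and 0.47 as deposited. In the ubiquitin and protein degradation list 3 of 28 rose, namely *maize insect resistance3*, *Zm00001d000390* and *Zm00001d001771*, with a median of 0.01 after scaling. Of these 3, 2 are proteases rather than parts of the ubiquitin system. Of 22 tested kinase and phosphatase genes 2 rose and 1 fell, and *Zm00001d000302*, a protein phosphatase 2C gene named after its values were seen, was called lower only after scaling (-1.19, adjusted p = 0.00161, and -0.70 as deposited). In the cell cycle, chromatin and microtubule list 1 of 27 rose, the MHK kinase gene, and 1 fell, *Zm00001d002089*, with a median of -0.06 after scaling and 0.42 as deposited. In the cell wall list 1 of 13 rose, *Zm00001d002193*. In the lipid list 1 of 22 rose, *Zm00001d001849*, in the redox list 1 of 11, *lipoxygenase6*, and in the heat shock, chaperone and water stress list 1 of 14 fell, *Zm00001d000128*.

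**Figure D3:**
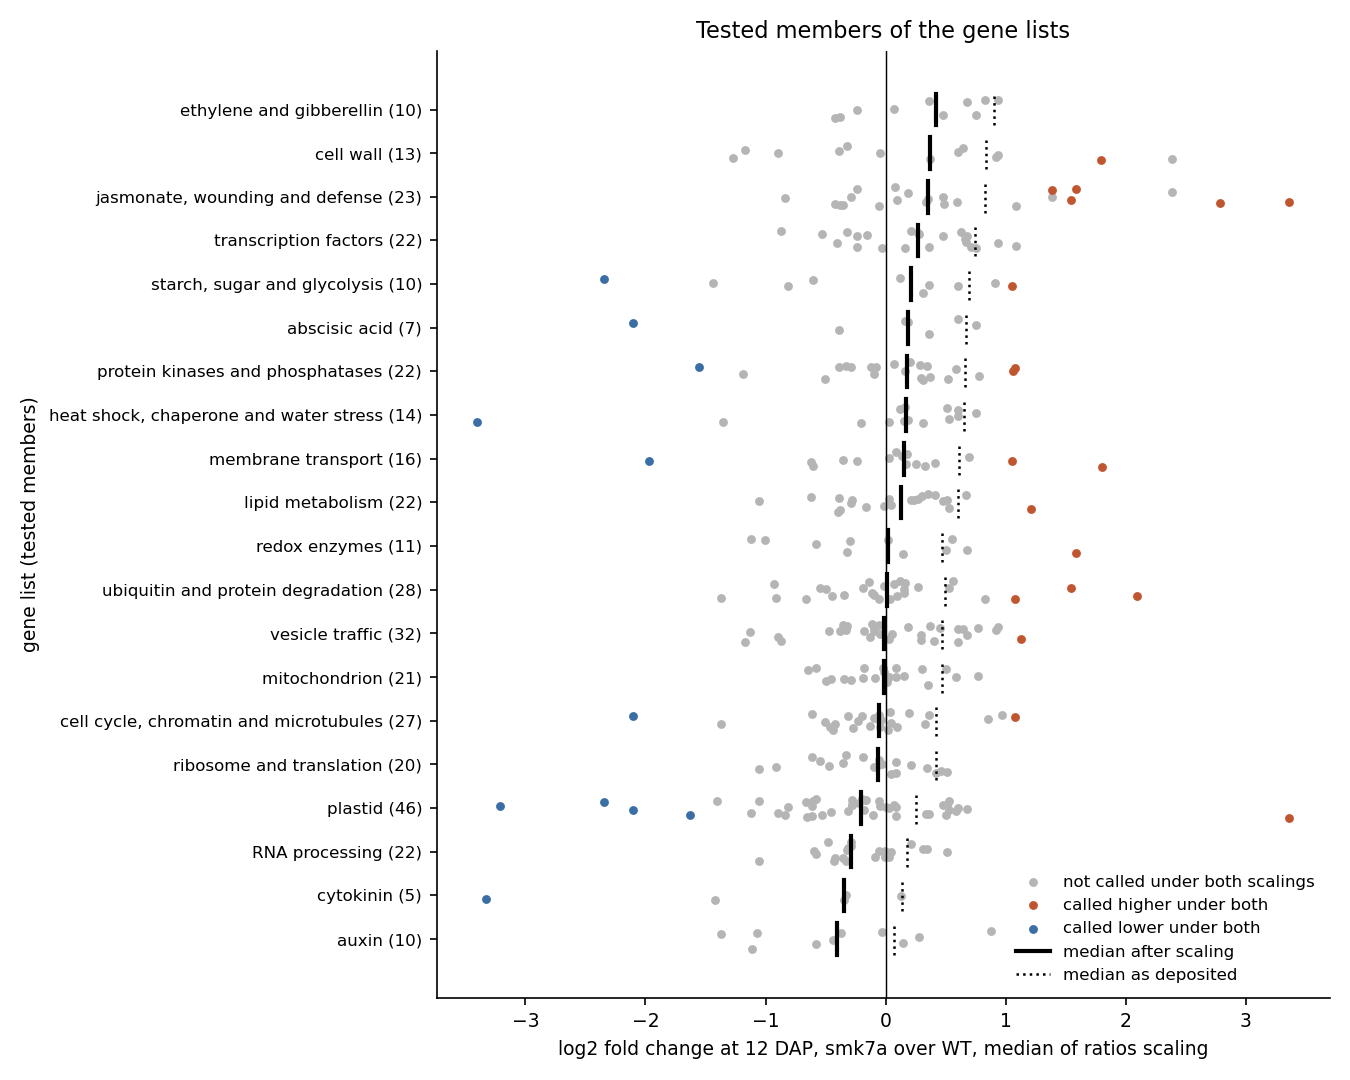
Log2 fold change after median of ratios scaling (x axis, *smk7a* over WT at 12 DAP) of the tested members of 20 gene lists (y axis, tested members in brackets). Orange and blue points were called higher and lower under both scalings, the solid bar is the median after scaling and the dotted bar the median as deposited, and the jasmonate, wounding and defense list holds 5 orange points and 0 blue ones. The terms of the lists were chosen with earlier results of these data known.

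The plot of the lists shows that every plotted list held members on both sides of 0 after scaling and that the medians after scaling lay between -0.40 and 0.42. As deposited every list median was above 0.

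A pair of neighbouring genes, chosen after their values were seen, moved in opposite directions. Both are described as alternative oxidase, a family of enzymes that pass electrons to oxygen. By their annotation both were in the plastid and redox lists and not in the mitochondrial list. *Zm00001d001908* was at 3.41, 2.90 and 2.34 FPKM in the WT and at 5.35, 7.94 and 6.37 FPKM in *smk7a*. *Zm00001d001909* was at 13.5, 16.2 and 14.8 FPKM in the WT and at 9.59, 9.70 and 9.15 FPKM in *smk7a*. The groups did not overlap for either gene under either scaling. *Zm00001d001908* was called higher as deposited (1.15, adjusted p = 0.00339) and not after scaling (0.68, adjusted p = 0.0253), and *Zm00001d001909* was called lower after scaling (-1.12, adjusted p = 0.00110) and not as deposited (-0.64, adjusted p = 0.00605). Since the 2 genes may share reads, the part of mapping in their values was not tested.

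Of 3 genes from the interval to which the mutation maps, 0 were called under either scaling, and after scaling the groups overlapped for all 3. *Zm00001d001819*, of the de-N-acetylase family of GPI anchor synthesis, was at 1.95, 1.48 and 1.94 FPKM in the WT and at 2.06, 2.20 and 2.35 FPKM in *smk7a*. This gave a log2 value of -0.17 (SE 0.21, adjusted p = 0.582) after scaling and 0.29 (adjusted p = 0.252) as deposited, so that its sign turned with the scaling. *Zm00001d001824* encodes the Dof zinc finger transcription factor DOF1.6. It was at 63.2, 63.2 and 58.4 FPKM in the WT and at 94.5, 85.1 and 111 FPKM in *smk7a*. These groups did not overlap as deposited, where the log2 fold change of 0.64 had an adjusted p-value of 0.00605 and missed only the fold threshold, whereas after scaling it was 0.16 (SE 0.14, adjusted p = 0.411). *Zm00001d001825*, a WD40 repeat-like gene, was at 5.88, 5.09 and 4.45 FPKM in the WT and at 5.79, 7.58 and 6.76 FPKM in *smk7a*. This amounted to a log2 change of -0.10 (SE 0.14, adjusted p = 0.657) after scaling and 0.38 (adjusted p = 0.0920) as deposited. Among the 20 tested genes with the nearest identifiers, 10 on each side, 2 rose (*Zm00001d001813* and *Zm00001d001839*) and 0 fell, with a median of -0.03 after scaling. These counts are near the shares of 7.67% and 4.11% of all tested genes. Both calls were lost after scaling without *smk7a* replicate 2. FPKM hold no information on the sequence of a transcript, so a change in the protein was not tested.

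**Figure D4:**
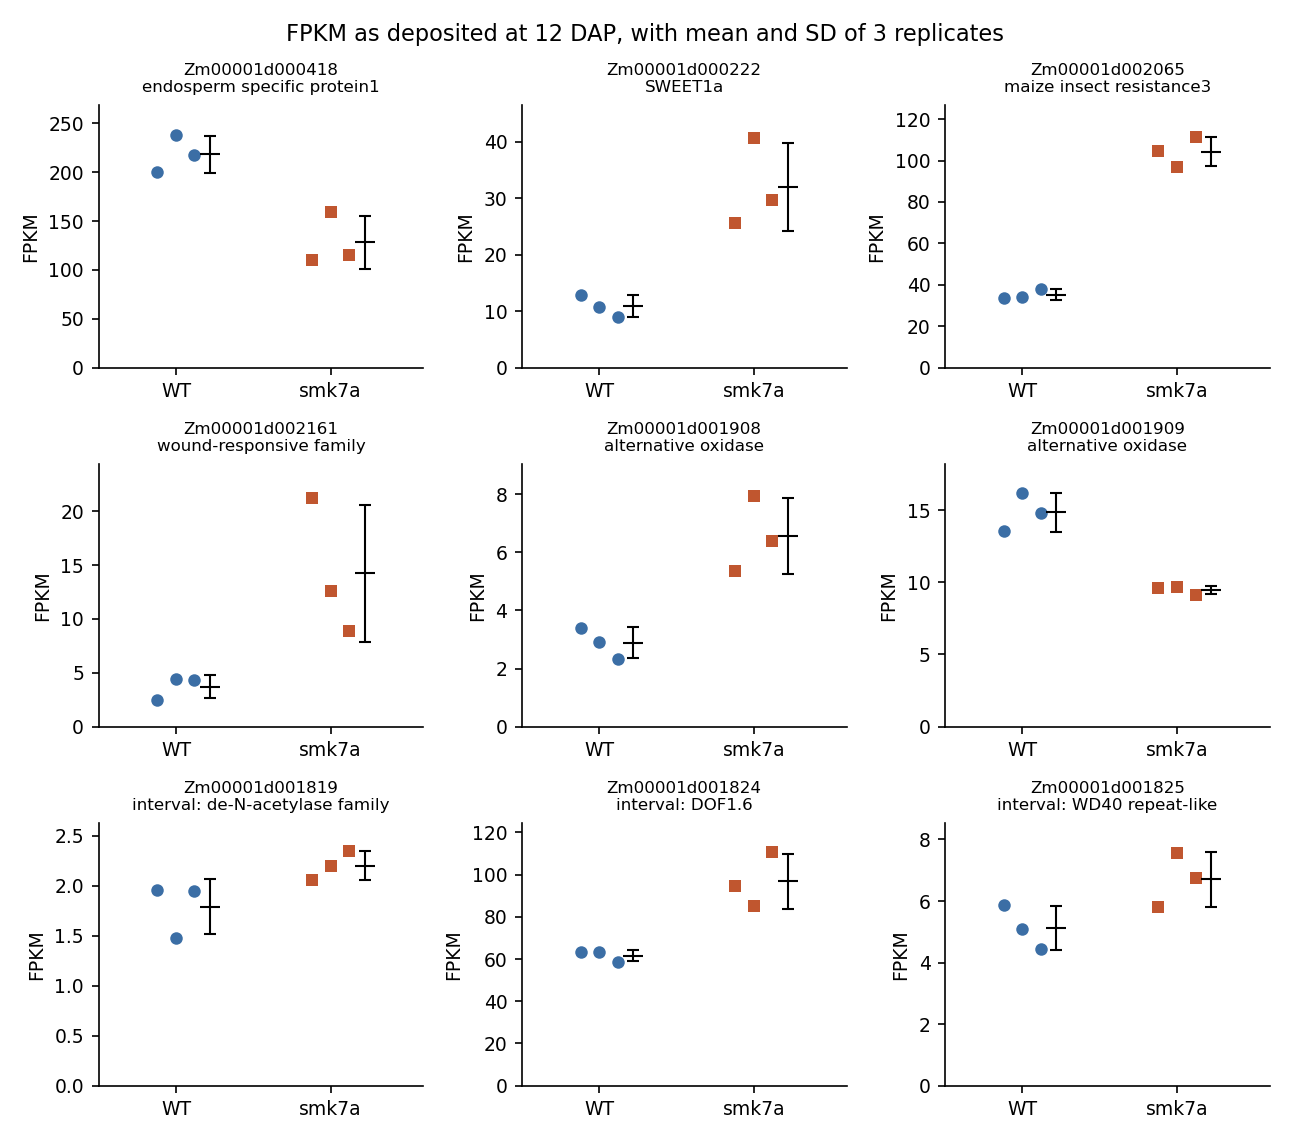
FPKM as deposited (y axis) of the WT (blue circles) and *smk7a* (orange squares) samples at 12 DAP for 9 genes, with the mean and SD of 3 replicates beside the points. The upper row holds an endosperm gene that was lower and 2 genes that were higher in *smk7a*, the middle row a wound-responsive gene and the 2 alternative oxidase genes, which differ in opposite directions, and the lower row the 3 genes of the mapping interval.

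The plot of the 9 genes shows that the mutant values of *Zm00001d001824* lay above those of the WT as deposited, with a log2 fold change of 0.64 beside the median of 0.48 for all tested genes, while *SWEET1a* and *maize insect resistance3* stood at 1.54 and 1.56.

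Weakly expressed genes were outside the test. Of 183 untested genes above 0 in at least 1 sample, 35 had all *smk7a* values above all WT values as deposited, 11 had all of them below, and 137 overlapped. Of the 365 tested genes, 188 lay above and 33 below in this way as deposited, where their median log2 fold change was 0.48. For the untested genes no counts after scaling are given. Of the tested genes, 9 were above 1 FPKM in the 3 *smk7a* samples and in none of the WT, and 3 of them were called under both scalings, namely *Zm00001d000390*, *Zm00001d001916* and *Zm00001d002055*. There were 2 genes above 1 FPKM in the 3 WT samples only, *Zm00001d000134* and *Zm00001d001857*, both called. Such genes passed the filter through the group in which they are high, so these counts only describe them.

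The genotype effect at 12 DAP was set against that at 20 DAP, where 3 WT and 3 other *smk7a* samples were sequenced. The difference between the 2 log2 fold changes was tested over all 12 samples after median of ratios scaling. With FPKM as deposited in place of that scaling, 80 genes had an adjusted p-value under 0.05 for this difference. After scaling, 90 of 370 genes (24.3%) had one, and these 90 are used below. Of the 28 genes that rose at 12 DAP, 17 were among them, all 17 with the larger effect at 12 DAP, and 8 of the 28 had a fold change of the opposite sign at 20 DAP. Of the 15 that fell, 11 were among them, all 11 with the larger effect at 12 DAP, and 2 had the opposite sign. The median effect at 20 DAP was 0.43 for the 28 and -0.77 for the 15. Since the 43 genes were chosen for a large effect at 12 DAP, the choice itself favors a smaller effect at the other stage, and these counts only describe them.

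Single genes showed several courses. At 20 DAP *polyphenol oxidase1* had 4.85, 4.07 and 4.62 FPKM in the WT and 9.03, 8.84 and 9.46 FPKM in *smk7a*, a log2 fold change of 0.46, compared with 3.38 at 12 DAP in the same fit (adjusted p of the difference = 0.000363). The mutant level was thus far lower at 20 DAP than at 12 DAP. The aspartyl protease gene *Zm00001d001771* turned its sign, with WT values of 12.5, 10.6 and 13.1 FPKM at the later stage and mutant values of 5.24, 6.82 and 6.37 FPKM (-1.51 against 2.11, adjusted p = 7.04e-05). *Zm00001d000237*, the cis-zeatin O-glucosyltransferase gene, turned the other way, with WT values of 1.46, 0.562 and 0.456 FPKM at the later stage and mutant values of 6.26, 5.99 and 4.50 FPKM (2.27 against -1.39, adjusted p = 0.000778). At 20 DAP the WT samples had 124, 88.0 and 132 FPKM of *BETL4* and the *smk7a* samples 54.7, 151 and 156 FPKM. Its groups overlapped there, and its effect of -0.60 differed from that of -2.18 at 12 DAP (adjusted p = 0.0218). *Zm00001d001984*, the amino acid permease gene, had like effects at both stages, with 6.04, 5.53 and 4.82 FPKM in the WT at the later stage and 34.0, 28.7 and 26.9 FPKM in *smk7a* (1.89 at 20 DAP, adjusted p of the difference = 0.839).

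**Figure D5:**
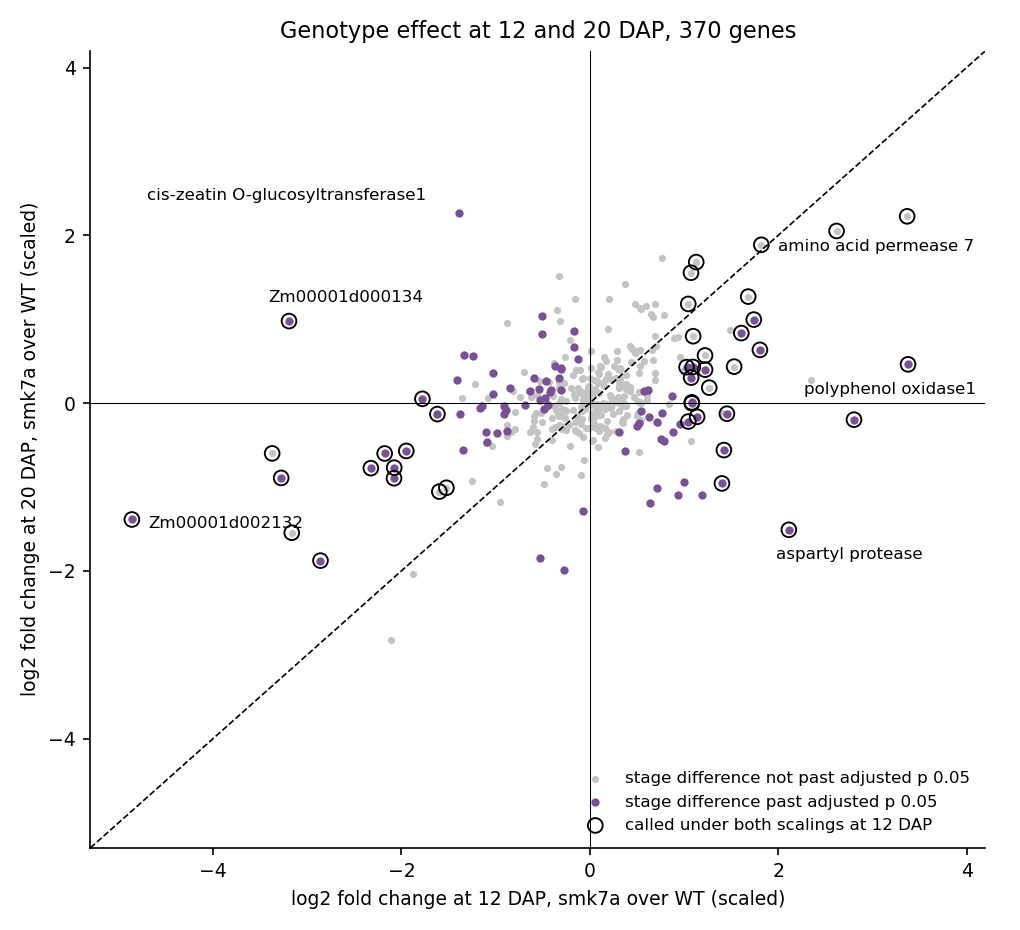
Log2 fold change of *smk7a* over WT at 12 DAP (x axis) and at 20 DAP (y axis) after median of ratios scaling for 370 genes. Purple points had an adjusted p-value under 0.05 for the difference between the stages, circles mark the 43 genes called under both scalings at 12 DAP, and the dashed line marks equal effects, near which *Zm00001d001984* lies (1.89 at 20 DAP) while *polyphenol oxidase1* lies far below it (3.38 and 0.46).

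In the plot of the 2 stages the circled genes spread along the 12 DAP axis more than along the 20 DAP axis, with *Zm00001d002132* at the lower left (-4.86 and -1.39) and *Zm00001d001771* at the lower right.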

How the data were processed

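The authors trimmed the reads with Trimmomatic, aligned them to the B73 RefGen_V4 genome with HISAT2 and deposited FPKM per gene and sample, counting only reads that matched without mismatch; the program that computed FPKM is not given in the sources used here. The table analysed here ends after 720 genes, inside an annotation cell, and the rest of the genome is not analysed here. FPKM scale by all mapped fragments, so a few abundant genes can shift all others, and read counts per gene were not recovered from them. Of the 720 genes, 555 have a description and 490 have annotation terms. 0 identifiers matched the gene name table, and 0 value columns were left unused.

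Genes above 1 FPKM in at least 3 of the 6 samples were tested with limma 3.58.1 in R 4.3.3 on log2(FPKM + 0.1), as deposited and after median of ratios scaling, with Benjamini-Hochberg adjustment. The stages were compared by an interaction term over 12 samples. The tables used pandas 2.3.3, numpy 2.4.6 and scipy 1.17.1 under Python 3.11.15, the figures used matplotlib 3.10.9, and the tests were first tested on simulated data. The text names the 10 largest rises and 10 largest falls called under both scalings without overlap, and genes named by the study. *dull endosperm1* and *Zm00001d000418* were included because they were known from earlier results. Added to these are called members of the lists (the smallest adjusted p where a list has none), the 5 largest stage differences and the 3 most abundant called genes. A further 16 genes were named after their values were seen. Among the 16 are *Zm00001d000009*, *Zm00001d000117*, *Zm00001d000123*, *Zm00001d000242*, *Zm00001d001894* and *Zm00001d002029*, which are not marked so above. Outside these rules and the 16, the text also gives *Zm00001d002159*, *Zm00001d002057*, *Zm00001d000135*, *Zm00001d001916* and *Zm00001d000183*. Members and lists were chosen with earlier results of these data known. The alternatives were other pseudocounts, filters, thresholds and scalings, a replicate block, and leaving out each replicate.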

Additional observations from a re-analysis of the deposited data

Results flagged for a closer look

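The genotype effect of 30 named genes differed between 12 and 20 DAP in the limma interaction test (adjusted p under 0.05, over 370 genes). Of all 370 genes, 90 (24.3%) passed. The values are log2 fold changes at 12 DAP minus those at 20 DAP, each after median of ratios scaling. Genes with an effect above 0 at 12 DAP and below 0 at 20 DAP had differences of 1.30 for *Zm00001d000299*, 1.98 for *Zm00001d000402*, 3.62 for *Zm00001d001771*, 2.03 for *Zm00001d001831*, 0.89 for *Zm00001d001837*, 1.23 for *Zm00001d002137*, 3.0 for *Zm00001d002160* and 2.36 for *Zm00001d002161*. Genes above 0 at 12 DAP that kept their sign had differences of 2.92 for *Zm00001d000001*, 0.66 for *Zm00001d000169*, 0.77 for *Zm00001d001813*, 0.75 for *Zm00001d001915*, 0.77 for *Zm00001d002000* and 1.17 for *Zm00001d002193*. Genes below 0 at 12 DAP and above 0 at 20 DAP had differences of -4.17 for *Zm00001d000134*, -3.66 for *Zm00001d000237* and -1.40 for *Zm00001d001882*. Genes below 0 at 12 DAP that kept their sign had differences of -1.55 for *Zm00001d000002*, -1.25 for *Zm00001d000123*, -1.58 for *Zm00001d000161*, -0.98 for *Zm00001d000181*, -1.38 for *Zm00001d000204*, -0.79 for *Zm00001d000224*, -2.38 for *Zm00001d000256*, -1.10 for *Zm00001d000302*, -1.31 for *Zm00001d000399*, -1.49 for *Zm00001d001894*, -0.64 for *Zm00001d001909*, -1.18 for *Zm00001d002089* and -3.47 for *Zm00001d002132*. Since most of these genes were named for a large effect at 12 DAP, the larger size of that effect was favored by the choice. The 5 largest stage differences were named for that difference, so they passed by the choice. Some effects at 20 DAP were near 0, such as -0.12 for *Zm00001d001837*, -0.16 for *Zm00001d000299* and -0.06 for *Zm00001d000302*. Their signs are those after scaling only. What lies behind the differences was not tested. Groups of 3 samples are too small for a test of single outlying samples.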

How the results depend on the processing

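There were 58 calls after scaling and 83 as deposited, and the fold threshold moved both counts further. Without a fold threshold the calls were 122 after scaling (60 higher, 62 lower) and 187 as deposited (159 higher, 28 lower), and 60 higher and 28 lower under both. With a test against a 1.5-fold change (limma treat) they were 32 after scaling (11 higher) and 48 as deposited (39 higher, 9 lower), and 11 higher and 9 lower under both. With a pseudocount of 1, 18 genes were called higher after scaling and under both. Which traits of the genes set the size of these moves was not tested. Leaving out 1 replicate gave 43 to 57 calls after scaling (19 to 31 higher, 24 to 31 lower), 74 to 86 as deposited (60 to 75 higher, 11 to 19 lower), 19 to 31 higher and 11 to 19 lower under both, and 68 to 94 stage differences. The deviations of WT and *smk7a* replicates of the same number had correlations of 0.17, -0.12 and -0.07, and those of different numbers ranged from -0.23 to 0.24. With 3 replicates a genotype this cannot decide whether the numbers pair samples, and the ears that gave them are not stated. With the replicate block there were 57 calls after scaling and 83 as deposited, and 58 stage differences in place of 90. Of the genes named, *Zm00001d001819* turned to 0.29 as deposited, and *Zm00001d001825* turned to 0.38 as deposited, to 0.049 when scaled to the total FPKM and to 0.011 without *smk7a* replicate 1 (-0.17 without *smk7a* replicate 2); the cause was not tested. The 34 named genes called under both scalings kept their call in 1200 of 1268 alternative values, lost it in 68 and reversed in 0. These genes were chosen for passing both main fits. Some alternatives, such as no fold threshold, cannot remove a call, so these counts only describe the genes. Read counts per gene were not used here, so no counting error is given for low genes.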
